A study of Mus musculus with 30 samples.

Results

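The genes described here are 10 transcripts of the ATF4 arm of the integrated stress response, namely Ddit3, Chac1, Trib3, Asns, Atf3, Atf4, Psat1, Phgdh, Slc7a11 and Sesn2. They were found as every array row whose gene symbol was one of these names, which gave 17 probes of 25697 and 10 genes of 18097. A probe was tested where its detection p-value, the scanner's measure of signal above the negative controls, was under 0.05 on at least 3 of the 30 arrays. That filter left 16 of the 17 probes and 9 of the 10 genes, out of 15151 probes and 11177 genes in all. Slc7a11 was the gene it removed.

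The cells were AINV15 mouse embryonic stem cells (ESCs) of 129P2/OlaHsd background, a line that carries the rtTA transactivator and so switches on genes behind a tetracycline-response element when doxycycline (Dox) is present. Each of the 4 rescue clones with a targeted gene carried a short hairpin RNA against 1 gene together with a Dox-inducible version of that gene which the hairpin cannot silence. The groups were Bub1b_R (a mitotic checkpoint kinase), Chek1_R (the DNA damage checkpoint kinase), Ppm1g_R (a metal-dependent phosphatase), Ppp2r1b_R (a scaffold subunit of protein phosphatase 2A) and the control clone, labelled Control_R and called Ctrl_R here, whose construct the labels do not describe. Each was measured with Dox at 1 ug/ml and 5 days after Dox was withdrawn, with 3 arrays per condition. All groups therefore share the rtTA line and, with Dox, the drug itself, and Ctrl_R without against with Dox gives the change on removing the drug in the control clone. The methods describe 3 rescue clones for each gene, but nothing in the sources used here says whether the 3 arrays of a condition came from separate clones or cultures, so the p-values measure the spread between arrays only. In bulk samples of this kind, fewer cells that express a gene and less RNA per cell cannot be told apart.

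The integrated stress response is a common pathway for several kinds of stress. Kinases that sense amino acid shortage, unfolded protein in the endoplasmic reticulum (ER), double-stranded RNA or heme shortage phosphorylate the translation factor eIF2alpha, which lowers protein synthesis in general and raises translation of the Atf4 mRNA. The ATF4 protein then switches on genes for amino acid synthesis and uptake (Asns, Psat1, Phgdh, Slc7a11), further regulators (Ddit3, which encodes CHOP, Atf3 and Trib3), the glutathione-degrading enzyme Chac1 and the mTORC1 inhibitor Sesn2. Because ATF4 is controlled largely by translation, the amount of Atf4 mRNA is not a measure of its activity.

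ATF4 binds composite sites at many of these genes, and the letters of the core of this site, the C/EBP-ATF response element TGATGNAA (N is any base), were looked for on both strands in the 250 bases before each gene's start in RefSeq (GRCm38.p6). All 10 members matched an entry. The core was present in 4 of the 10 members, against 3.45% of the 32851 promoter windows in the table. The matching stretches are shown because they are the sequence feature these genes are best known for, with the core or its reverse complement in capitals. Each is written 5′ to 3′ along the gene's strand. The match ended 185 bases before the start of Chac1, 15 before that of Asns, 102 before that of Atf3 and 58 before that of Slc7a11.
Chac1, chr2:119351029-119351076, plus strand: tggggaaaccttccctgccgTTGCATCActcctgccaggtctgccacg
Asns, chr6:7693210-7693252, minus strand: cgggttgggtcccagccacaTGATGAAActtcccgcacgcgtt
Atf3, chr1:191183416-191183463, minus strand: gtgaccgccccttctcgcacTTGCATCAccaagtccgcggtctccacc
Slc7a11, chr3:50443652-50443699, minus strand: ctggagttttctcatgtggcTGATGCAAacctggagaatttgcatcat
Slc7a11 has a second match in the other orientation 39 bases before its start, in lower case near the end of its stretch. The cAMP response element and the longer ER stress response element, searched the same way, were found in 0 of the 10 members, against 1.55% and 0.113% of all windows. A missing match says only that these letters are not in this window.

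Between 11733 and 13685 probes were detected per array. The 18 arrays of 3 clones (Ppm1g_R, Ppp2r1b_R and those labelled Chek1_R) needed a signal of 27.8 to 58.1 to count as detected, whereas 12.9 to 20.9 was enough for the 12 Ctrl_R and Bub1b_R arrays, so that for the first 3 clones the set of arrays and the clone cannot be told apart in any comparison with Ctrl_R. Comparisons of Bub1b_R with Ctrl_R, and of each clone with and without Dox, lie within a set as drawn by this signal. The labels name no batch, and the sample records of Ctrl_R are numbered earlier than those of all other clones. Bub1b_R and Ctrl_R may therefore still differ by batch. Of the targeted genes, Ppm1g fell on withdrawal in Ppm1g_R (log2 change −1.25, adjusted p = 4.5e-09), whereas Bub1b in Bub1b_R differed by −0.14 (adjusted p = 0.217) and Ppp2r1b in Ppp2r1b_R by 0.20 (adjusted p = 0.365). Chek1 went against its label: its probe was undetected on all 3 arrays labelled Chek1_R with Dox but detected on all 3 without, a gain of at least 1.35-fold (adjusted p = 0.00115). Against Ctrl_R, Bub1b in Bub1b_R was called lower with (−0.70) and without Dox (−0.67). Chek1 for arrays labelled Chek1_R was called lower with Dox (at least 3.02-fold) and without (−1.07). Ppm1g in Ppm1g_R was called lower without Dox only (−1.74, and −0.33 with). Ppp2r1b in Ppp2r1b_R was called lower with Dox (−0.61) but not without (−0.25, adjusted p = 0.158). According to the methods the rescue copies of Chek1 and Bub1b lack the untranslated stretch that the hairpin targets. The sources used here do not say which part of either transcript the probe reads. Either probe may therefore miss the rescue copy, and the Chek1 probe may not check the label. The clones were maintained on mouse embryonic fibroblasts per the labels, and the cultures for RNA had no feeder cells according to the methods. Of 13 tested ESC markers, all 13 were detected on every array. Their summed normalised intensity was lower without Dox in every clone, from 31300 to 33100 against 45900 to 47500 in Ppp2r1b_R to 49500 to 50700 against 53600 to 55900 in Ctrl_R, and the markers called lower were 5 in Ppp2r1b_R, 3 in Bub1b_R (Fgf4, Tcl1 and Utf1), 1 in Ppm1g_R, 2 for arrays labelled Chek1_R and 0 in Ctrl_R (6 of 13 at an unadjusted limma p under 0.05). Of 16 fibroblast markers 10 were tested. Their summed intensity without against with Dox was 6550 to 6980 against 7780 to 8460 for arrays labelled Chek1_R, 10700 to 11500 against 8430 to 9440 in Bub1b_R, 8580 to 9280 against 5460 to 5740 for Ppm1g_R, 4530 to 4820 against 5240 to 5440 in Ppp2r1b_R and 4380 to 4540 against 4870 to 5170 in Ctrl_R. Single fibroblast genes, Dcn, Col1a1 and Twist2 among them, were called higher without Dox in 2 to 4 cases in each clone with a targeted gene and in 0 cases in Ctrl_R (2 of 10 at an unadjusted limma p under 0.05), while Thy1 was called lower for arrays labelled Chek1_R and in Ppm1g_R. The fibroblast markers Col1a2, Col5a2, Lum, Postn and S100a4 were detected on 0 arrays. The part of these markers in the results below was not tested.

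The stress effectors Ddit3, Chac1 and Trib3 were called lower in some clones when Dox was withdrawn and higher in none. Calls required a change of 1.5-fold or more with an adjusted p under 0.05, and the brightest tested probe stood for the gene. Under that fold limit, Chac1 was higher without Dox in Bub1b_R by 0.21 (adjusted p = 0.0168). The direction for arrays labelled Chek1_R follows their Dox labels, which the Chek1 probe went against, and every withdrawal change given for them would turn its sign if those labels were exchanged. All changes are differences of log2 normalised intensity, without Dox minus with Dox. With Dox, all 3 genes were lower than in Ctrl_R in all 4 clones with a targeted gene, by 2.16- to 5.86-fold. Without Dox the differences ran from 9.23-fold lower for Ddit3 in Ppm1g_R to 1.18-fold lower for Chac1 in Bub1b_R, the 1 of these 12 that was not called.

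Ddit3 encodes CHOP, a transcription factor that promotes cell death under lasting ER stress. With Dox its level on the 3 arrays was 8.75, 8.99 and 8.77 for those labelled Chek1_R, and without Dox it was 7.79, 7.50 and 7.64. In Ppm1g_R it was 8.30, 8.12 and 8.07 with Dox and 7.68, 7.29 and 7.51 without. Neither pair of groups overlapped, and Ddit3 fell by 1.19 ± 0.13 (SE) for arrays labelled Chek1_R (adjusted p = 1.13e-07) and by 0.67 ± 0.13 in Ppm1g_R (adjusted p = 0.000509). In Bub1b_R the levels of 9.10, 9.46 and 9.35 with Dox lay above the 8.95, 8.95 and 8.86 without it, but the change of −0.38 (adjusted p = 0.0355) was under the fold limit. In Ppp2r1b_R (8.42, 8.41 and 7.90 with Dox, 8.25, 8.46 and 8.31 without) and Ctrl_R (10.77, 10.53 and 10.83 with, 10.58, 10.85 and 10.67 without) the groups overlapped, with changes of 0.10 (95% interval −0.17 to 0.37) and −0.01 (−0.28 to 0.26). Set against the change in Ctrl_R, that of the arrays labelled Chek1_R was lower by 1.18 (adjusted p = 5.24e-05) and that of Ppm1g_R by 0.66 (adjusted p = 0.0199). The Ppm1g_R call rested on single arrays: without its −Dox replicate 2 the change was −0.57, and the difference from Ctrl_R was −0.59 without +Dox replicate 1 and −0.55 without −Dox replicate 2, all short of a call. Leaving out Ctrl_R +Dox replicate 2 or −Dox replicate 2 had the same effect on that difference, at −0.57 and −0.58. The second, dimmer Ddit3 probe also gave no rise, with changes of −0.62 in Bub1b_R (adjusted p = 0.00203), −0.82 for arrays labelled Chek1_R (adjusted p = 6.86e-05) and −0.50 in Ppm1g_R (adjusted p = 0.0115, under the fold limit). For Bub1b_R and Ppm1g_R the 2 probes thus fell on different sides of the fold limit.

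Chac1 encodes an enzyme that breaks down glutathione and is among the most ATF4-dependent genes. In Ppp2r1b_R it was at 9.09, 9.20 and 9.14 with Dox and at 7.71, 7.75 and 7.84 without. For arrays labelled Chek1_R it was at 9.31, 9.24 and 9.22 with Dox and at 8.16, 8.34 and 8.47 without. It also fell in the control clone, from 10.57, 10.57 and 10.56 to 9.74, 9.74 and 9.77. The groups were far apart in all 3 clones, and the falls were 1.38 ± 0.06 in Ppp2r1b_R (adjusted p = 2.03e-13), 0.93 ± 0.06 for arrays labelled Chek1_R (adjusted p = 2.37e-11) and 0.81 ± 0.06 in Ctrl_R (adjusted p = 1.13e-08). Bub1b_R (9.36, 9.34 and 9.23 with Dox, 9.51, 9.55 and 9.49 without) and Ppm1g_R (9.01, 8.96 and 9.08 with, 9.05, 9.07 and 9.06 without) behaved differently, with changes of 0.21 (adjusted p = 0.0168, under the fold limit) and 0.04 (95% interval −0.09 to 0.17). Relative to Ctrl_R the change was higher in Bub1b_R by 1.02 ± 0.09 (adjusted p = 3.54e-08) and in Ppm1g_R by 0.85 ± 0.09 (adjusted p = 6.67e-07). In both cases Ctrl_R fell, and neither Bub1b_R nor Ppm1g_R had a called rise. The difference for Ppp2r1b_R was −0.57 (adjusted p = 0.000238), just short of the fold limit and past it without +Dox replicate 1 or −Dox replicate 3 (−0.59 and −0.60), and that for the arrays labelled Chek1_R was −0.12 (−0.30 to 0.06).

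Trib3 encodes a pseudokinase that binds ATF4 and CHOP and restrains them. It was at 9.47, 9.35 and 9.33 with Dox and 8.29, 8.43 and 8.33 without for arrays labelled Chek1_R. In Ppp2r1b_R the values were 9.09, 9.16 and 9.03 with and 8.19, 8.02 and 8.24 without, and in Ctrl_R 10.72, 10.71 and 10.66 with and 10.08, 9.97 and 9.98 without. None of these groups overlapped, and Trib3 fell by 1.04 ± 0.08 (adjusted p = 4.45e-10), 0.94 ± 0.08 (adjusted p = 1.27e-08) and 0.69 ± 0.08 (adjusted p = 9.23e-06). In Bub1b_R (9.68, 9.54 and 9.55 with Dox, 9.23, 9.14 and 9.20 without) the change was −0.40 (adjusted p = 0.000732, under the fold limit), and in Ppm1g_R (8.65, 8.88 and 8.66 with, 8.80, 8.63 and 8.42 without) the groups overlapped. No clone's Trib3 change passed both limits against that of Ctrl_R; the nearest was Ppm1g_R at 0.58 (adjusted p = 0.00157), which passed the fold limit without 1 of 4 single arrays at values of 0.60 to 0.68. Of the 2 dimmer Trib3 probes, 1 fell for arrays labelled Chek1_R (−0.95, adjusted p = 0.000191) and the other in Ctrl_R (−0.68, adjusted p = 0.0108), and the remaining changes of these probes were not called. In Ppm1g_R and Ppp2r1b_R these probes were detected on at most 1 of 3 arrays of a condition.

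**Figure D1:**
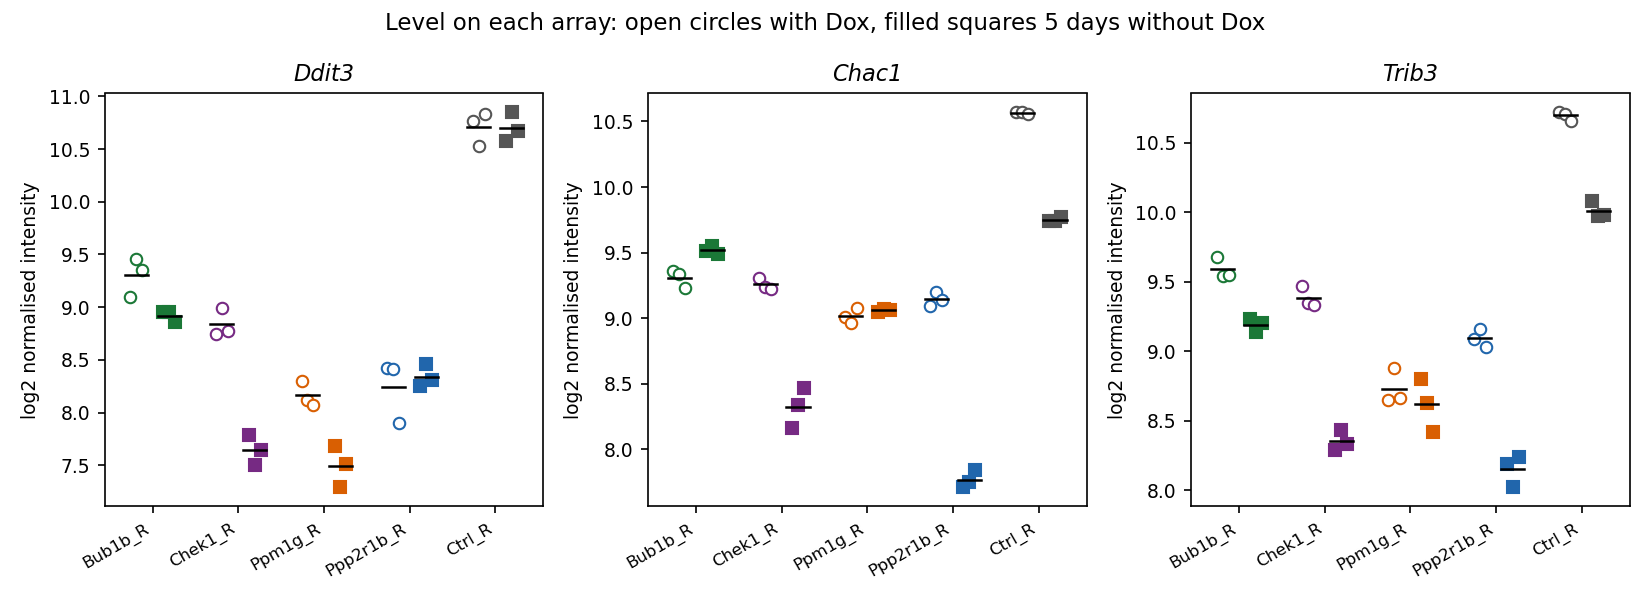
Log2 normalised intensity of Ddit3, Chac1 and Trib3 (brightest probe of each) on all 30 arrays, grouped by clone, with open circles for arrays with Dox, filled squares for 5 days without Dox and a black line at the mean of 3 arrays. Ctrl_R lies highest for every gene, and Chac1 falls from about 10.57 to 9.74 in Ctrl_R but stays near 9.0 to 9.5 in Ppm1g_R and Bub1b_R.

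Against Ctrl_R with Dox present, Ddit3, Chac1 and Trib3 were lower in all 4 clones. For Ddit3 the log2 differences with Dox were −1.88 for arrays labelled Chek1_R, −1.41 in Bub1b_R, −2.55 in Ppm1g_R and −2.47 in Ppp2r1b_R, which is 2.66- to 5.86-fold (highest adjusted p = 5.29e-09). For Chac1 they were −1.31, −1.25, −1.55 and −1.42 (highest adjusted p = 1.05e-13), and for Trib3 −1.31, −1.11, −1.97 and −1.60 (highest adjusted p = 1.19e-10). In every one of these comparisons all 9 pairs of arrays went the same way. Without Dox, Ddit3 differed by −3.06, −1.78, −3.21 and −2.36 in the same order of clones, up to 9.23-fold, and Trib3 by −1.66, −0.82, −1.39 and −1.86. Chac1 without Dox differed by −0.69 in Ppm1g_R, −1.43 for arrays labelled Chek1_R and −1.99 in Ppp2r1b_R, while in Bub1b_R the difference of −0.24 (adjusted p = 0.00267) was under the fold limit. By the signal needed for detection the Bub1b_R arrays fall in the same set as those of Ctrl_R, though a batch difference between them cannot be told apart from the clone. In Bub1b_R the 3 differences with Dox were 2.66-, 2.39- and 2.16-fold. The 4 comparisons at each Dox state share the same 3 Ctrl_R arrays.

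Atf4 mRNA itself was lower on average without Dox in every clone, by less than the fold limit. For arrays labelled Chek1_R it was at 12.05, 11.95 and 12.19 with Dox and 11.71, 11.94 and 11.72 without, and in Ppp2r1b_R at 12.13, 11.98 and 12.28 with and 11.78, 11.72 and 11.72 without. In Bub1b_R it was lowest, at 11.62, 11.59 and 11.45 with and 11.47, 11.44 and 11.37 without. The mean in Ppm1g_R was 12.35 with Dox and 12.09 without. Changes of Atf4 on withdrawal ran from −0.39 in Ppp2r1b_R (adjusted p = 0.00314) to −0.13 in Bub1b_R (adjusted p = 0.359), with −0.24 in Ctrl_R (adjusted p = 0.117), and none reached the fold limit. The adjusted p was also under 0.05 for arrays labelled Chek1_R and in Ppm1g_R. The differences of the 4 clones' changes from that in Ctrl_R lay between −0.15 and 0.11, with 95% intervals within −0.42 and 0.38. Against Ctrl_R with Dox, Atf4 was lower in Bub1b_R by 0.63 ± 0.09 (log2 difference −0.63, adjusted p = 5.72e-06), a call that fell under the fold limit without Bub1b_R +Dox replicate 3 (−0.58) or Ctrl_R +Dox replicate 1 (−0.56). The same difference without Dox was −0.52 (adjusted p = 4.35e-05), under the limit. The dimmer second Atf4 probe gave changes of −0.43 to 0.09 and no call.

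The amino acid enzymes Asns, Psat1 and Phgdh were detected on every array, and by their brightest probes no withdrawal change reached the fold limit. Asns, which makes asparagine from aspartate, was at 13.49, 13.29 and 13.42 with Dox and 13.68, 13.88 and 13.69 without for arrays labelled Chek1_R, a change of 0.35 ± 0.06 (adjusted p = 7.36e-05) that was under the fold limit. In Ppm1g_R it went the other way, from 13.96, 13.90 and 14.03 to 13.72, 13.71 and 13.66 (−0.27, adjusted p = 0.00212), and in Ctrl_R from 13.48, 13.51 and 13.47 to 13.19, 13.19 and 13.31 (−0.25, adjusted p = 0.0104). The change for arrays labelled Chek1_R thus exceeded that in Ctrl_R by 0.61 ± 0.09 (adjusted p = 1.48e-05), a call that dropped under the fold limit, at 0.54 to 0.58, when +Dox replicate 2 or −Dox replicate 2 of that label or −Dox replicate 1 or 2 of Ctrl_R was left out. The other 2 Asns probes gave the same sign there, with changes of 0.43 (adjusted p = 3.24e-07) and 0.59 (adjusted p = 0.000408, called).

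Psat1 and Phgdh catalyse neighbouring steps of serine synthesis. Psat1 was at 11.85, 11.80 and 11.79 with Dox and 11.32, 11.42 and 11.27 without in Ppp2r1b_R, a change of −0.48 ± 0.08 (adjusted p = 9.33e-05). It changed by −0.43 in Ppm1g_R (adjusted p = 0.000257), by −0.35 for arrays labelled Chek1_R (adjusted p = 0.00149) and by −0.15 in Ctrl_R (adjusted p = 0.291), all under the fold limit, and in Bub1b_R it was 12.35, 12.27 and 12.20 with and 12.26, 12.23 and 12.49 without. Without Dox, Psat1 was lower in Ppp2r1b_R than in Ctrl_R (−0.82 ± 0.08, adjusted p = 3.4e-09). Phgdh had changes of −0.42 in Ppm1g_R (adjusted p = 0.00197), −0.26 for arrays labelled Chek1_R (adjusted p = 0.0352), −0.24 in Ppp2r1b_R (adjusted p = 0.0578), −0.10 in Bub1b_R (adjusted p = 0.503) and −0.06 in Ctrl_R (adjusted p = 0.752), with no call in any comparison. Slc7a11, the cystine importer that supplies glutathione synthesis, was not detected on any of the 30 arrays by its single probe. Its normalised values of 4.58 to 5.29 are background, and no statement on its expression can be made from them.

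Atf3 was the 1 member called higher on withdrawal by its brightest probe, beside the dimmer Asns probe called for arrays labelled Chek1_R. It encodes a transcription factor induced by ATF4 and by several other stress and growth signals. In Bub1b_R it was at 5.75, 5.74 and 5.88 with Dox and 6.97, 6.91 and 6.69 without, and in Ppp2r1b_R at 5.84, 5.81 and 5.73 with and 6.64, 6.32 and 6.22 without. The groups did not overlap, and Atf3 rose by 1.07 ± 0.13 in Bub1b_R (2.09-fold, adjusted p = 1.66e-06) and by 0.60 ± 0.13 in Ppp2r1b_R (adjusted p = 0.00177). For arrays labelled Chek1_R (5.29, 5.36 and 5.75 with, 6.08, 5.92 and 5.97 without) the change of 0.52 (adjusted p = 0.00395) was under the fold limit, and it was 0.66 without +Dox replicate 3. In Ppm1g_R (5.20, 5.36 and 5.10 with, 5.79, 5.64 and 5.85 without) Atf3 was detected on 0 of 3 arrays with Dox and on 3 of 3 without, which is at least 1.11-fold higher (adjusted p = 0.00451). In Ctrl_R the levels of 6.02, 5.64 and 5.66 with Dox and 5.55, 5.96 and 5.51 without overlapped (−0.10, 95% interval −0.38 to 0.17). Set against Ctrl_R, the change was higher in Bub1b_R by 1.17 ± 0.19 (adjusted p = 0.000171), in Ppp2r1b_R by 0.70 (adjusted p = 0.0216) and for arrays labelled Chek1_R by 0.62 (adjusted p = 0.0221). It was also called higher in Ppm1g_R (adjusted p = 0.026), but there the fit used values of a +Dox group in which Atf3 was undetected on all 3 arrays, so no size is given.

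The Bub1b_R results for Atf3 held without any single array. The withdrawal call in Ppp2r1b_R and the other clones' differences from the change in Ctrl_R did not. With 1 array left out, the Ppp2r1b_R change was 0.57 without +Dox replicate 3 and 0.48 without −Dox replicate 1, both under the fold limit. The adjusted p of the difference from Ctrl_R lost its call in Ppp2r1b_R without −Dox replicate 1 (0.0659) and without 3 of the Ctrl_R arrays, namely +Dox replicate 1 (0.0691), −Dox replicate 1 (0.057) and −Dox replicate 3 (0.0613). The same 3 Ctrl_R arrays, and single arrays of the clone itself, ended that call for Ppm1g_R (0.0542 to 0.0848) and for the arrays labelled Chek1_R (0.0549 to 0.0763). Atf3 was dim throughout, and its probe was detected on 1 of 3 arrays labelled Chek1_R with Dox and on 2 of 3 of Ppp2r1b_R with Dox. The summed fibroblast markers were higher without Dox in Bub1b_R and Ppm1g_R and lower in the other 3 clones, as given above. Against Ctrl_R without Dox, Atf3 was higher in Bub1b_R by 1.19 (adjusted p = 5.58e-08) and in Ppp2r1b_R by 0.72 (adjusted p = 4.79e-05), and with Dox these 2 clones were each within 0.02 of Ctrl_R.

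Sesn2 encodes a leucine sensor that restrains mTORC1 and is a target of p53 as well as of ATF4. In Ppp2r1b_R it was at 7.48, 7.12 and 7.45 with Dox and 6.71, 6.85 and 6.60 without, and fell by 0.63 ± 0.12 (adjusted p = 0.000601). In Ctrl_R it was at 8.11, 8.23 and 8.26 with and 7.70, 7.83 and 7.50 without, a change of −0.52 (adjusted p = 0.00977) under the fold limit that passed it without −Dox replicate 2 (−0.60). In Ppm1g_R the values of 7.26, 7.33 and 7.40 with Dox overlapped the 7.89, 7.36 and 7.52 without (0.26, adjusted p = 0.145), and this change was higher than that in Ctrl_R by 0.78 ± 0.18 (adjusted p = 0.00393). The Ppp2r1b_R fall dropped under the fold limit without +Dox replicate 1 (−0.56), +Dox replicate 3 (−0.58) or −Dox replicate 3 (−0.57). Against Ctrl_R with Dox, Sesn2 was lower for arrays labelled Chek1_R (−0.62, adjusted p = 0.000234, and −0.58 without +Dox replicate 3), in Ppm1g_R (−0.87, adjusted p = 1.93e-06) and in Ppp2r1b_R (−0.85, adjusted p = 2.61e-06), and without Dox only the Ppp2r1b_R difference was called (−0.96, adjusted p = 3.72e-07). The second Sesn2 probe was detected on all arrays of Ctrl_R but on 2 or fewer of 3 in every other condition, and gave no withdrawal call.

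**Figure D2:**
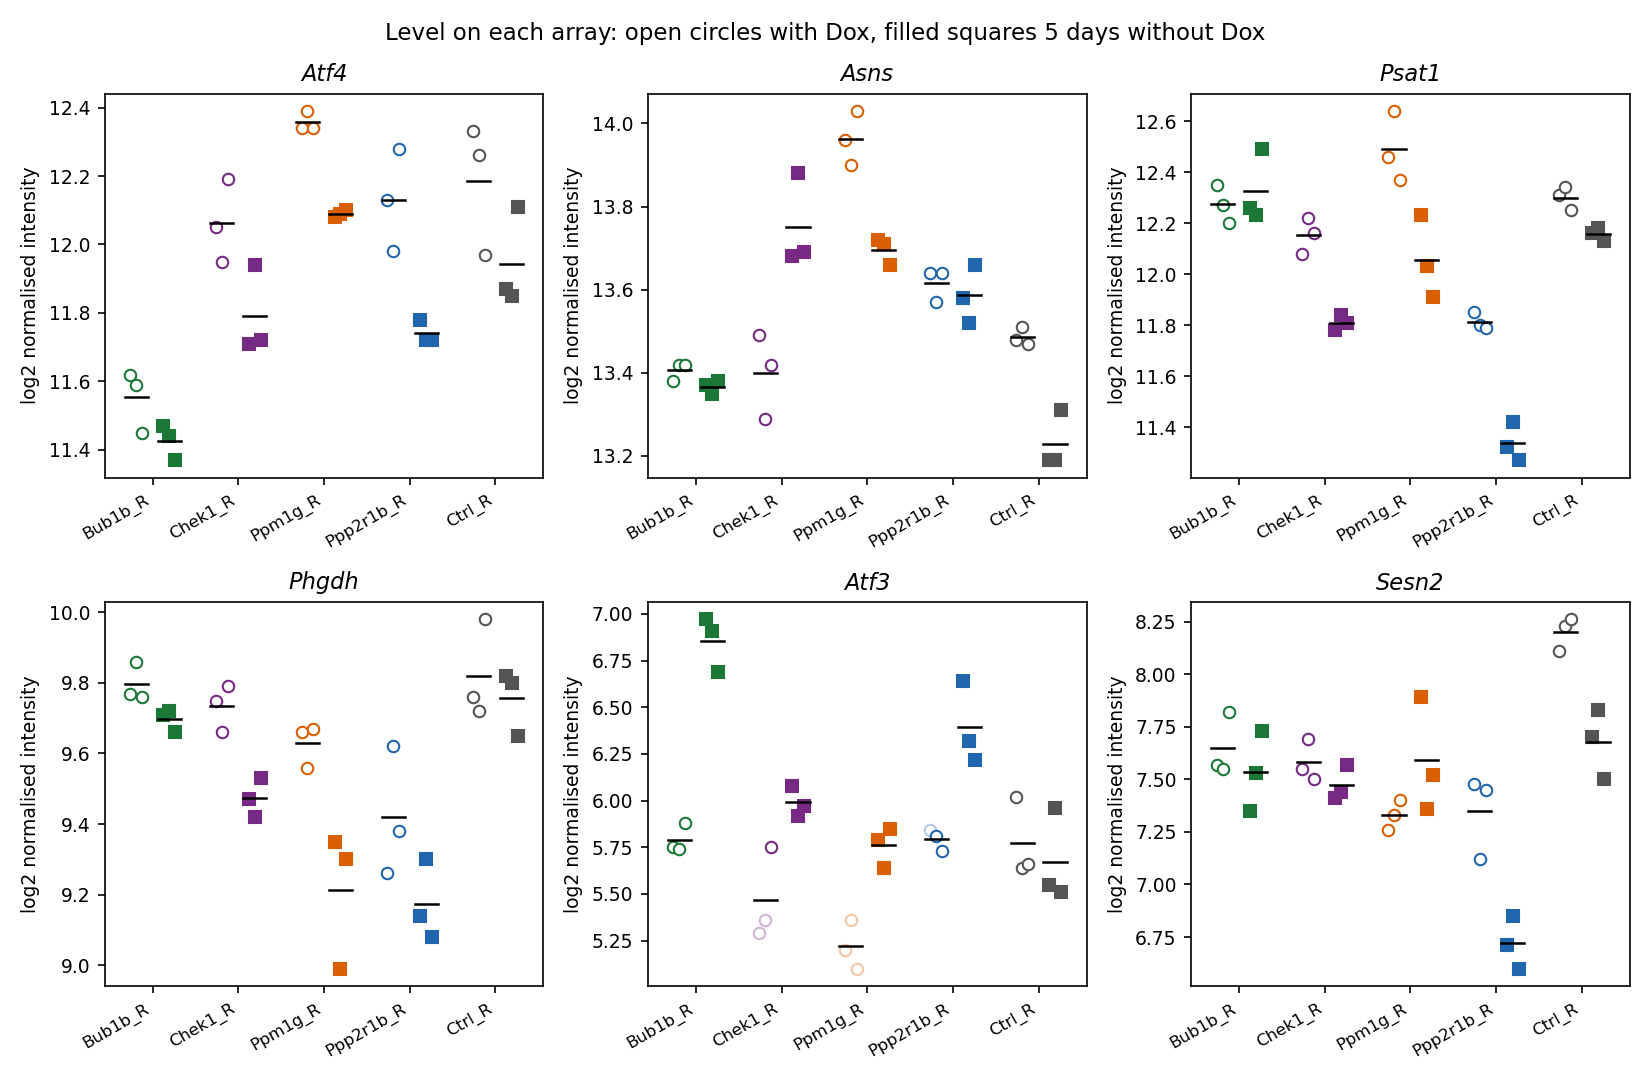
Log2 normalised intensity of Atf4, Asns, Psat1, Phgdh, Atf3 and Sesn2 on all 30 arrays, with open circles for Dox, filled squares for 5 days without Dox, a black line at the mean of 3 arrays and pale symbols where the probe was not detected. The vertical scales differ between genes, and Atf3 in Bub1b_R rises from 5.74 to 5.88 with Dox to 6.69 to 6.97 without.

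Counted over the 9 tested members, withdrawal gave 3 genes called lower for arrays labelled Chek1_R (Ddit3, Chac1 and Trib3) and 0 higher, 1 higher in Bub1b_R (Atf3) and 0 lower, 1 lower in Ppm1g_R (Ddit3) and 0 higher, 1 higher (Atf3) and 3 lower (Chac1, Trib3 and Sesn2) in Ppp2r1b_R, and 2 lower in Ctrl_R (Chac1 and Trib3) and 0 higher. With no fold limit and in either direction, a limma p under 0.05 before adjustment was found for 8 of the 9 members for arrays labelled Chek1_R (41.5% of all genes), 4 in Bub1b_R (37.3%), 7 in Ppm1g_R (36%), 7 in Ppp2r1b_R (37.7%) and 5 in Ctrl_R (22.9%). After adjustment the numbers were 8 (33.5%), 4 (26.8%), 6 (25.4%), 6 (26.9%) and 4 (8.38%) in the same order. Over all 11177 genes, the share called higher and lower was 4.68% and 5.24% for arrays labelled Chek1_R, 3.28% and 2.96% in Bub1b_R, 2.43% and 2.2% in Ppm1g_R, 2.77% and 2.2% in Ppp2r1b_R and 0.698% and 0.447% in Ctrl_R. The median change of the members was −0.28, −0.10, −0.27, −0.39 and −0.24 in the same order, beside −0.02 to −0.01 over all genes. The Ppm1g_R count was 2 without +Dox replicate 2, and the Ppp2r1b_R count was 2 without +Dox replicate 3. Chac1 and Trib3 are thus 2 of the 50 genes that fell when Dox was taken from the control clone.

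Measured against the change in Ctrl_R, 2 members were called higher (Asns and Atf3) and 1 lower (Ddit3) for arrays labelled Chek1_R, 2 higher in Bub1b_R (Chac1 and Atf3), 3 higher (Chac1, Sesn2 and Atf3, the last undetected with Dox) and 1 lower (Ddit3) in Ppm1g_R, and 1 higher in Ppp2r1b_R (Atf3). The background shares, higher and lower, were 4.63% and 4.97%, 2.95% and 2.61%, 2.86% and 2.69%, and 1.78% and 1.64%, and the members' medians −0.12, 0.22, −0.01 and −0.15. The count for arrays labelled Chek1_R was 1 without +Dox replicate 2 or Ctrl_R −Dox replicate 1, the Ppm1g_R count 2 without its +Dox replicate 1, and the Ppp2r1b_R count 0 without its −Dox replicate 1 or any 1 of 3 Ctrl_R arrays and 2 without +Dox replicate 1 or −Dox replicate 3. All 4 differences use the same 6 Ctrl_R arrays, the Atf3 differences included.

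**Figure D3:**
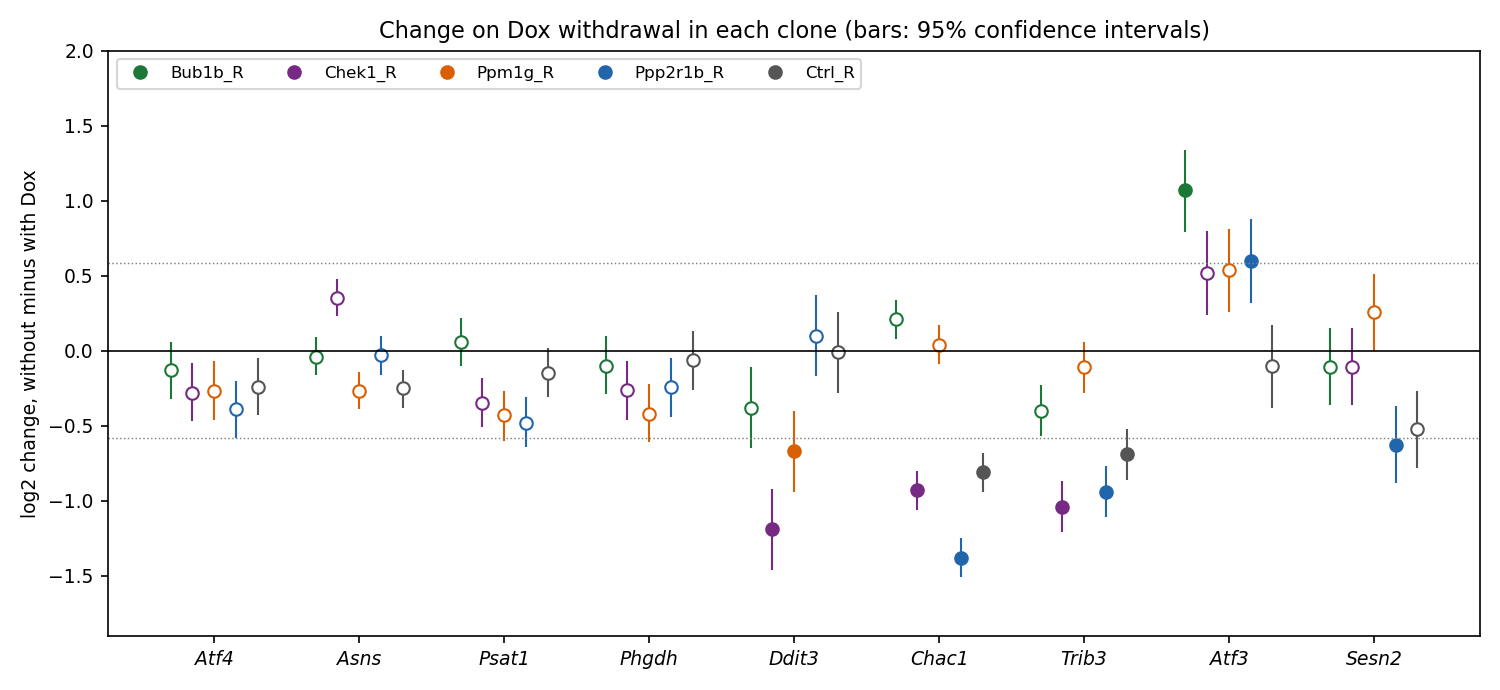
Log2 change of the 9 tested members on Dox withdrawal (without minus with Dox) in each clone, with 95% confidence intervals, filled where called and open otherwise, and dotted lines at 1.5-fold. Filled points above 0 occur for Atf3 only, and Chac1 spans −1.38 in Ppp2r1b_R to 0.21 in Bub1b_R.

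In the level comparisons with Ctrl_R many more genes of the array differed, and the members' counts are read against that. Without Dox, 1 member was higher (Atf3) and 2 lower (Ddit3 and Trib3) in Bub1b_R, against 11.4% and 12.5% of all genes, and 3 were lower (Ddit3, Chac1 and Trib3) both for arrays labelled Chek1_R (14.3% higher and 14.7% lower over all genes) and in Ppm1g_R (16.9% and 16.6%). In Ppp2r1b_R 1 was higher (Atf3) and 5 lower (Ddit3, Chac1, Trib3, Psat1 and Sesn2), against 17.1% and 16%. With Dox, 4 members were lower in each clone and 0 higher, namely Ddit3, Chac1 and Trib3 with Atf4 in Bub1b_R (6.88% and 6.44% of all genes higher and lower) and with Sesn2 for arrays labelled Chek1_R (9.88% and 7.86%), in Ppm1g_R (14.7% and 14.1%) and in Ppp2r1b_R (14.5% and 13%). These counts rest on the brightest probe of each gene. With Dox, the dimmest Asns probe averaged 9.71 in Ppm1g_R, 9.49 in Ppp2r1b_R, 8.91 for arrays labelled Chek1_R and 8.68 in Bub1b_R and Ctrl_R. Without Dox it averaged 9.49, 9.52, 9.51, 8.37 and 8.61 in the same order. The dimmer Atf4 probe with Dox averaged 7.92, 7.64, 7.47, 6.58 and 7.23. The dimmer probes of Ddit3, Trib3 and Sesn2 averaged lower than in Ctrl_R in every clone at both Dox states. The medians of the members with Dox were −0.56 in Bub1b_R, −0.55 in Ppm1g_R, −0.31 for arrays labelled Chek1_R and −0.49 in Ppp2r1b_R, where the median over all genes was never lower than −0.03.

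**Figure D4:**
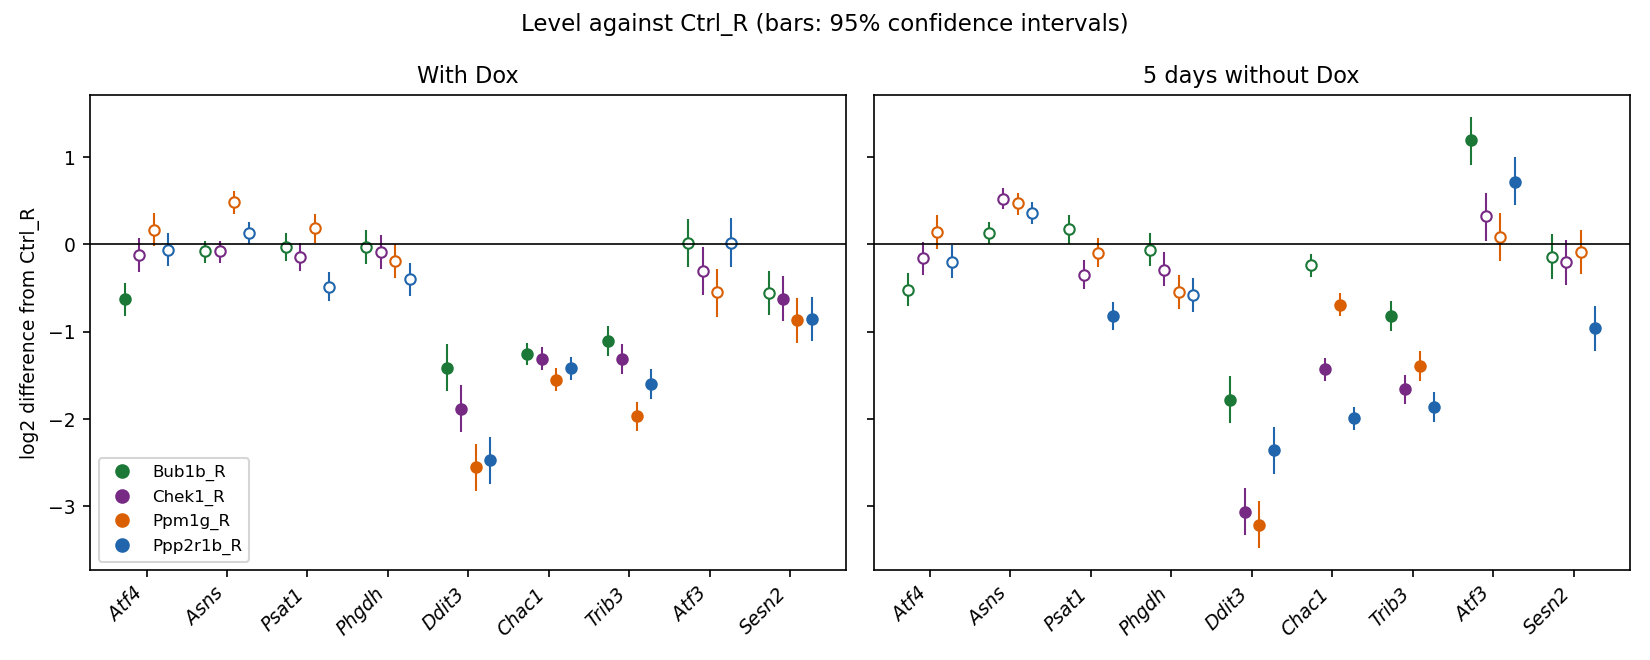
Log2 difference of each tested member from Ctrl_R with Dox (left) and 5 days without Dox (right), with 95% confidence intervals, filled where called. Ddit3, Chac1 and Trib3 lie at −1.11 or lower in all 4 clones with Dox, while Atf3 lies above 1 in Bub1b_R without Dox.

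The 4 clones with a targeted gene did not change alike. An F-test of whether the withdrawal change was equal in the 4 clones passed for 6 of the 9 members, against 26% of all genes. These were Chac1 (adjusted p = 3.17e-12), Trib3 (3.42e-06), Asns (1e-04), Ddit3 (0.000128), Psat1 (0.00309) and Sesn2 (0.005), whereas Atf3 (0.083), Phgdh (0.298) and Atf4 (0.453) did not pass. Without the arrays labelled Chek1_R 5 passed, Asns being the one lost (adjusted p = 0.0551). For Chac1, the change in Bub1b_R exceeded that in Ppp2r1b_R by 1.58 (adjusted p = 2.96e-11), that in Ppm1g_R exceeded it by 1.42 (adjusted p = 3.16e-10), and Bub1b_R and Ppm1g_R did not differ beyond their error (0.16, 95% interval −0.02 to 0.35). Trib3 followed the same division for Ppm1g_R against the arrays labelled Chek1_R (−0.93 for the latter minus the former, adjusted p = 3.32e-06) and against Ppp2r1b_R (0.83, adjusted p = 3.5e-05). The Sesn2 change was also higher in Ppm1g_R than in Ppp2r1b_R (0.89, adjusted p = 0.00149), and that of Asns was higher for arrays labelled Chek1_R than in Ppm1g_R (0.62, adjusted p = 1.54e-05). Ddit3 divided the clones another way, with the arrays labelled Chek1_R below Ppp2r1b_R (−1.29, adjusted p = 3.03e-05) and Ppm1g_R below Ppp2r1b_R as well (−0.77, adjusted p = 0.00694). Across the 30 arrays, each less its clone's mean, Chac1 and Trib3 had the closest relation of any pair of members (Pearson r = 0.88), Ddit3 followed Chac1 loosely (0.29), and Atf3 ran against Trib3 (−0.59). The arrays of a condition share their treatment and, for all conditions, the normalisation, so these values only describe the data.

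The order of the clones differed between genes. With Dox, Ddit3 ran from Ctrl_R (mean 10.71) through Bub1b_R (9.30), the arrays labelled Chek1_R (8.84) and Ppp2r1b_R (8.24) to Ppm1g_R (8.16), where only the last 2 overlapped. Chac1 and Trib3 had the same order with Dox, in Chac1 with overlap between Bub1b_R and the arrays labelled Chek1_R and in Trib3 with none. Without Dox, Chac1 fell into 5 levels with no overlap between neighbours, from Ctrl_R (9.75) through Bub1b_R (9.52), Ppm1g_R (9.06) and the arrays labelled Chek1_R (8.32) to Ppp2r1b_R (7.77). Asns had Ppm1g_R highest with Dox (13.96) and the arrays labelled Chek1_R highest without (13.75). Levels of different genes are not set against each other, since probes differ in brightness.

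Other genes of the pathway were taken from lists of its upstream arm, its partners and its target classes. Of the eIF2alpha kinases, phosphatase subunits and eIF2 and eIF2B subunits, 9 of 15 could be tested. Eif2ak2, which encodes the double-stranded-RNA kinase PKR and is also an interferon-induced gene, was the only one called on withdrawal in any clone, and it rose by 1.58 ± 0.09 for arrays labelled Chek1_R (adjusted p = 1.74e-12), 0.87 in Bub1b_R (adjusted p = 1.54e-07) and 1.22 in Ppm1g_R (adjusted p = 1.16e-09), with 0.57 in Ppp2r1b_R (adjusted p = 6.74e-05, under the fold limit) and 0.15 in Ctrl_R (adjusted p = 0.371). The shares of all genes called on withdrawal are those given above for the members. The median of the list lay between −0.07 and 0.10, with Eif2s2 at −0.30 to 0.10 and Ppp1r15b at −0.02 to 0.20. The genes for the ER stress kinase PERK (Eif2ak3) and the amino acid sensor GCN2 (Eif2ak4), and Ppp1r15a, which encodes the inducible eIF2alpha phosphatase subunit GADD34, were not tested.

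Of 17 partners and feedback genes 16 were tested. Gdf15, a secreted stress cytokine, fell by 1.44 for arrays labelled Chek1_R (adjusted p = 3.55e-08), by 0.80 in Bub1b_R (adjusted p = 0.000205) and by 0.69 in Ppm1g_R (adjusted p = 0.00116). Nupr1, a stress-induced chromatin protein, fell by 0.78 for arrays labelled Chek1_R (adjusted p = 1.16e-07), 0.62 in Bub1b_R (adjusted p = 6.74e-06) and 0.83 in Ppp2r1b_R (adjusted p = 1.5e-07). Vldlr, the very-low-density lipoprotein receptor, went the other way and rose by 1.15 for arrays labelled Chek1_R (adjusted p = 1.23e-09), 1.00 in Bub1b_R (adjusted p = 3.28e-08) and 0.89 in Ppp2r1b_R (adjusted p = 3.11e-07). Cebpb (−0.08 to 0.49) and Ddit4 (−0.30 to 0.42) were not called in any clone. Over this list, 1 gene was higher and 4 lower for arrays labelled Chek1_R, 1 and 2 in Bub1b_R, 0 and 3 in Ppm1g_R, 3 and 1 in Ppp2r1b_R and 0 and 1 in Ctrl_R. Over all genes, the shares were 4.68% and 5.24%, 3.28% and 2.96%, 2.43% and 2.2%, 2.77% and 2.2%, and 0.698% and 0.447%. With no fold limit, limma's adjusted p was under 0.05 for 10 (33.5% of all genes), 10 (26.8%), 7 (25.4%), 8 (26.9%) and 3 (8.38%) in the same order. Against Ctrl_R with Dox, 0 of the 16 were higher and 7 lower for arrays labelled Chek1_R, 0 and 6 in Bub1b_R, 0 and 5 in Ppm1g_R, and 1 (Jdp2) and 5 in Ppp2r1b_R, with medians of −0.47, −0.43, −0.29 and −0.19. Without Dox the counts were 0 and 7, 1 (Atf5) and 8, 0 and 8, and 3 (Cebpb, Stc2 and Vegfa) and 4, with medians of −0.44, −0.55, −0.60 and 0.13. The shares of all genes in these comparisons are those given above for the members. Nupr1, Gdf15, Herpud1 and Fgf21 were the genes of this list called lower in all 8 comparisons, and they are named for that. For Nupr1 the differences with Dox were −1.17 to −2.19 (highest adjusted p = 9.38e-11) and for Gdf15 −1.53 to −1.83 (highest adjusted p = 1.04e-08). Herpud1, an ER-associated degradation factor, differed by −0.94 to −1.13 with Dox.

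The amino acid classes gave few calls on withdrawal at the fold limit. Over all genes, the share called lower was 5.24% for arrays labelled Chek1_R, 2.96% in Bub1b_R, 2.2% in Ppm1g_R and Ppp2r1b_R and 0.447% in Ctrl_R. Of 7 tested transporters, Slc6a9, a glycine transporter, fell for arrays labelled Chek1_R (−0.87, adjusted p = 4.03e-08) and was the only call in any clone. Slc7a3 changed by −0.50 there (adjusted p = 7.43e-07) and Slc1a4 by 0.50 (adjusted p = 4.44e-06), both under the fold limit, and Slc3a2, the heavy chain that pairs with Slc7a11, by −0.34 to 0.31. Slc7a5 was not tested. With no fold limit, limma's adjusted p was under 0.05 for 4 of the 7 transporters for arrays labelled Chek1_R and 1 in Bub1b_R. There were 2 each in Ppm1g_R, Ppp2r1b_R and Ctrl_R. Of 11 tested genes of serine, one-carbon and other amino acid synthesis, Mthfd2, a mitochondrial folate enzyme, and Gpt2, a mitochondrial alanine transaminase, fell for arrays labelled Chek1_R (−0.63, adjusted p = 9.31e-06, and −0.64, adjusted p = 5.31e-07) and in Ppp2r1b_R (−0.59, adjusted p = 5.31e-05, and −0.67, adjusted p = 9e-07). Cbs, which starts transsulfuration, fell in Bub1b_R (−0.63, adjusted p = 0.00426). The medians of this list were −0.41 in Ppp2r1b_R, −0.24 in Ctrl_R and −0.13 to −0.07 in the other clones, and Shmt2 (−0.26 to 0.04) was not called. Psph was not tested. With no fold limit, limma's adjusted p was under 0.05 for 9 of these 11 genes in Ppp2r1b_R (26.9% of all genes). The number was 4 for arrays labelled Chek1_R (33.5%), 4 in Bub1b_R (26.8%), 4 in Ctrl_R (8.38%) and 2 in Ppm1g_R (25.4%). Against Ctrl_R, Cbs was lower in all 4 clones at both Dox states (−0.66 to −1.22). In Ppp2r1b_R, 8 of the 11 were lower than in Ctrl_R without Dox (16% of all genes) and 0 higher. With Dox 7 were lower (13%) and 1 higher. In the other clones 1 to 4 were lower and 0 higher. Of 19 tested aminoacyl-tRNA synthetases, which charge tRNAs, 0 were called in any clone's withdrawal change, although limma's unadjusted p was under 0.05 for 4 to 10 of them per clone. With no fold limit, limma's adjusted p was under 0.05 for 8 in Ppp2r1b_R (26.9% of all genes) and 6 for arrays labelled Chek1_R (33.5%). It was so for 5 in Ppm1g_R (25.4%), 3 in Ctrl_R (8.38%) and 2 in Bub1b_R (26.8%). The values furthest from 0 among those named by the rule were those of Aars (−0.57 in Ppp2r1b_R, adjusted p = 3.44e-07), Sars (−0.41) and Tars (−0.42) in the same clone.

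Lists of neighbouring stress pathways also held few genes called on withdrawal. The share of all genes called per direction was 0.447% to 5.24%. Counts near 0 in lists this short are therefore not read as results about those pathways. Of 13 tested ER chaperone and unfolded protein response genes, 0 were called in the 4 clones with a targeted gene, with limma's unadjusted p under 0.05 for 3 to 6 per clone. With no fold limit, limma's adjusted p was under 0.05 for 4 in Ppp2r1b_R, 3 in Bub1b_R, 3 in Ppm1g_R and 2 for arrays labelled Chek1_R. The shares of all genes at that limit are those just given. Hspa5, the ER chaperone BiP, rose in Ctrl_R (0.67 ± 0.17, adjusted p = 0.0143) and changed by 0.10 to 0.44 in the others, and the differences from Ctrl_R of −0.58 to −0.23 were not called (lowest adjusted p = 0.102). Xbp1 (−0.25 to 0.09), Pdia3 (−0.01 to 0.39) and Pdia6 (0.13 to 0.40) were not called. Of 9 tested targets of NRF2, the regulator of the oxidative stress response that shares Slc7a11 with ATF4, Gclm fell for arrays labelled Chek1_R (−0.70, adjusted p = 4.49e-07) and Hmox1 fell in Ctrl_R (−1.14, adjusted p = 0.00405), with Nqo1 at −0.12 to 0.14, Srxn1 at −0.52 to −0.02 and Nfe2l2, which encodes NRF2 itself, at −0.56 to 0.00. Set against the change in Ctrl_R, that of Hmox1 was called higher in all 4 clones with a targeted gene. Its level was called higher than in Ctrl_R in all 4 without Dox, and with Dox lower in Ppp2r1b_R. Nfe2l2 was called lower than in Ctrl_R in all 4 clones at both Dox states. Of 13 tested p53 targets, the fall of Sesn2 in Ppp2r1b_R was the only withdrawal call, with Cdkn1a at −0.11 to 0.27, Mdm2 at −0.40 to 0.21 and Bbc3 at −0.40 to −0.07. With no fold limit, limma's adjusted p was under 0.05 for 5 of the 13 for arrays labelled Chek1_R (33.5% of all genes). The number was 3 in Ppm1g_R (25.4%), 2 in Ppp2r1b_R (26.9%), 1 in Bub1b_R (26.8%) and 1 in Ctrl_R (8.38%). Perp was detected on 2 or fewer of 3 arrays in every condition.

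**Figure D5:**
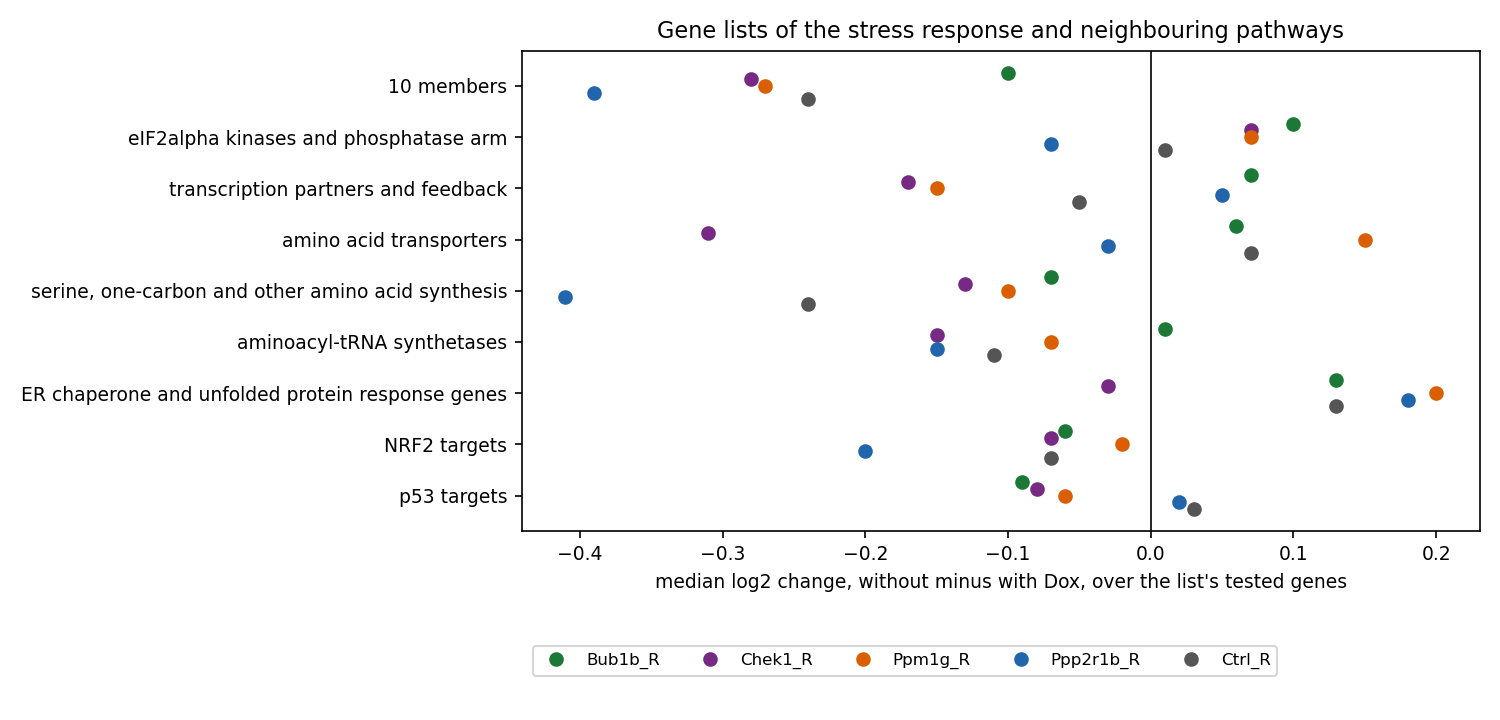
Median log2 change on Dox withdrawal over the tested genes of each list, 1 point per clone. The 10 members (9 tested) lie at −0.39 to −0.10 and the list of amino acid synthesis genes at −0.41 to −0.07, while the lists of ER chaperones and of eIF2alpha kinases lie at −0.07 to 0.20.

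The genes whose pattern was most like the members' were sought by correlating every gene with the mean of the members' standardised levels, each array less its clone's mean. The 5 nearest were Ubox5 (Pearson r = 0.893 over 30 arrays), Cbr3 (0.891), Elmo1 (0.89), 1110002N22Rik (0.882) and Foxred1 (0.877). All 5 had negative changes in all 5 clones, from −0.12 in Bub1b_R for Elmo1 to −1.09 in Ppp2r1b_R for Cbr3. The choice favours this direction, since the members' median change was itself negative in every clone.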

How the data were processed

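Total RNA of the 30 samples was hybridised to Illumina mouse bead arrays. The authors deposited non-normalised probe intensity values, each with its detection p-value. Their own normalisation is not given in the sources used here beyond lumi, named in the submitters' processing notes. In 2 columns of the deposited detection p-values, 46 and 14 cells held dates. Of these, 28 and 6 were converted back, and 18 and 8 took the p-value of the probe with the nearest signal.

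Intensity was background-corrected, quantile-normalised and log2-transformed with neqc (limma 3.58.1, R 4.3.3, offset 16). Probes stayed in if 3 or more arrays had detection p below 0.05. One limma model with a mean for each of 10 conditions gave all contrasts (20 residual and 3.38 prior degrees of freedom), with Benjamini-Hochberg adjustment over 15151 probes. Called means adjusted p under 0.05 and at least 1.5-fold. The brightest probe stood for a gene. Where a group was undetected on every array, the fold is a bound, the bright mean against the higher of the lowest detected and the dim signal on each array. The number of arrays limits the precision. The scripts were tested on simulated data.

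The members and lists were chosen with earlier results of these data known. Named were all members, the 3 genes of each list with the largest mean change over the 4 clones, a fixed set of pathway genes, the targeted genes and the 5 genes most like the members. Genes named beyond this rule, Herpud1, Fgf21, Thy1 and the undetected fibroblast markers, were chosen after their values were seen. Alternatives covered background correction, scaling, offset, detection filter, arrays in the fit, replicate block, fold limit, the methods' t-test, probe averaging and leaving out each array.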

Additional observations from a re-analysis of the deposited data

Results flagged for a closer look

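The withdrawal change differed among the 4 clones with a targeted gene for 6 members by limma's F-test. The adjusted p was 3.17e-12 for Chac1, 3.42e-06 for Trib3, 1e-04 for Asns, 0.000128 for Ddit3, 0.00309 for Psat1 and 0.005 for Sesn2. The change also differed from that in the control clone in 10 cases by the interaction test. The adjusted p was 5.24e-05 for Ddit3 for arrays labelled Chek1_R and 0.0199 in Ppm1g_R. For Chac1 it was 3.54e-08 in Bub1b_R and 6.67e-07 in Ppm1g_R. For Asns it was 1.48e-05 for arrays labelled Chek1_R, and for Sesn2 0.00393 in Ppm1g_R. For Atf3 it was 0.0221 for arrays labelled Chek1_R, 0.000171 in Bub1b_R, 0.0216 in Ppp2r1b_R and 0.026 in Ppm1g_R, where it was undetected on all 3 arrays with Dox. All 10 use the same control arrays, and the causes of these differences were not tested.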

How the results depend on the processing

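Of the 52 called values of single members, 934 alternative values were computed, of which 852 kept direction and call, 82 kept direction and lost the call, and 0 changed sign. Part of this was fixed in advance. The setting with no fold limit could not end a call, and changing only the fold limit or the test could not change a sign. The sources do not say whether arrays are separate cultures, array set and clone are confounded in 3 clones, and signal near background limits Atf3. A batch difference between Bub1b_R and Ctrl_R is not excluded either. The count of members called on withdrawal in Ppm1g_R (1) was 2 with no background correction or with median scaling, 0 with an offset of 50, a 2-fold limit or the methods' t-test, and 6 with no fold limit. That in Ppp2r1b_R (4) was 2 with an offset of 50 or the t-test and 1 with a 2-fold limit. With no fold limit the counts were 4 in Bub1b_R, 8 for arrays labelled Chek1_R and 4 in Ctrl_R, and with a 2-fold limit 0 in Ctrl_R. Against the change in Ctrl_R, the Ppp2r1b_R count (1) was 0 with median scaling, an offset of 50, a fit of the compared arrays only or a 2-fold limit and 2 with no fold limit, the Ppm1g_R count (4) was 2 with an offset of 50 and 0 with a 2-fold limit, and the count for arrays labelled Chek1_R (3) was 1 with a 2-fold limit. Against Ctrl_R without Dox, the Ppp2r1b_R count (6) was 3 with a 2-fold limit, and with no fold limit the counts were 5 in Bub1b_R, 7 for arrays labelled Chek1_R and 5 in Ppm1g_R, and 7 in Ppm1g_R with Dox. The F-test count was 6 or 7 in every other setting tried and 5 without the arrays labelled Chek1_R, an alternative chosen after seeing the data. The median difference of all probes in Ppp2r1b_R against Ctrl_R was −0.18 with median scaling and −0.04 in the reported fit. Relative to Ctrl_R, Atf3 lost its call in all 3 clones other than Bub1b_R in the fit of the compared arrays (adjusted p of 0.0617 to 0.114), and without background correction its withdrawal change for arrays labelled Chek1_R was called, at 0.88. The Ppm1g_R call then gained (adjusted p = 0.000676), like that with median scaling, used +Dox arrays on which Atf3 was undetected and gives no size. The causes were not tested.

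Changes near 0 turned sign. With median scaling Chac1 in Ppm1g_R was −0.04 and Ddit3 in Ctrl_R 0.01, and relative to Ctrl_R Phgdh in Bub1b_R was 0.02 and Atf4 for arrays labelled Chek1_R 0.07. With the mean of all probes, the values relative to Ctrl_R were −0.06 for Atf4 in Bub1b_R, 0.03 for Trib3 in Ppp2r1b_R and 0.15 for Sesn2 in Ppp2r1b_R. With 1 array left out, the withdrawal changes ran from −0.08 to 0.19 for Ddit3 in Ppp2r1b_R, −0.10 to 0.05 for Ddit3 in Ctrl_R, −0.25 to 0.02 for Atf3 in Ctrl_R, −0.12 to 0.02 for Phgdh in Ctrl_R and −0.02 to 0.11 for Psat1 in Bub1b_R. Relative to Ctrl_R they ran from −0.06 to 0.20 for Ddit3 in Ppp2r1b_R, −0.12 to 0.02 for Phgdh in Bub1b_R, −0.04 to 0.03 for Asns in Ppm1g_R, −0.09 to 0.08 for Atf4 in Ppm1g_R and −0.11 to 0.07 for Atf4 for arrays labelled Chek1_R. Leaving out 1 array gave counts of 1 to 2 on withdrawal in Ppm1g_R and 2 to 4 in Ppp2r1b_R, and relative to Ctrl_R 1 to 3 for arrays labelled Chek1_R, 2 to 5 in Ppm1g_R and 0 to 2 in Ppp2r1b_R.

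No pairing by replicate number was visible, since 1 of 15 correlations between same-numbered arrays was over 0.1 (range −0.0835 to 0.131). With few arrays per condition this cannot show that same-numbered arrays shared no culture. With the replicate block the Ppp2r1b_R count relative to Ctrl_R was 0, and Atf3 lost its call there (adjusted p = 0.0646 by limma), in Ppm1g_R (0.0684) and for arrays labelled Chek1_R (0.0577). It changed no other call of a member.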
